A study of Caenorhabditis elegans with 4 samples.

Results

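The regions described here are the 397 LIN-11 peaks on chromosome II of Caenorhabditis elegans, out of 2381 peaks in a single list covering the 5 autosomes and X. They were taken as every line of the list that names chromosome II, whatever its score. The study recovered DNA bound by tagged LIN-11 from second-stage larvae (L2) and sequenced it beside input DNA. There were 2 ChIP libraries and 2 input libraries, numbered 1 and 2 in each group. All 4 came from hermaphrodites of strain OP62, grown in liquid culture at 20 °C and fixed with 2% formaldehyde. OP62 carries the mutant allele unc-119(ed3) and the transgene wgIs62, which holds a rescuing unc-119(+) copy and lin-11::TY1::EGFP::3xFLAG. Per the labels the transgene was brought in by particle bombardment and the fusion follows the normal lin-11 pattern, and the labels used here do not give its insertion site. An anti-GFP serum raised in goat pulled down the tagged protein. Whole animals were used, so a peak does not tell in which cells the protein was bound. The authors' list gives a start, an end and a q-value for each peak over both replicates together, and nothing for a single library. Depth is therefore unknown, the replicates cannot be compared, and the intervals below cover counting error over peaks only.

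LIN-11 is one of the founding LIM homeodomain transcription factors, in which a homeodomain binds DNA and LIM domains bind partner proteins. In the worm it is known for its part in the divisions of vulval cells, in uterine cells and in the identity of several sensory neurons and interneurons. Worm autosomes have a gene-rich centre between repeat-rich arms, and their genes lie close together. Positions are those of WormBase WS180, as the file header states. No gene is assigned to a peak and no sequence is shown, because the genome and annotation of that build were not used here.

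Chromosome II carried an intermediate density of LIN-11 peaks for its length. Its 397 peaks lay over 15.3 Mb, from base 1 to the end of its last peak, which gave 26 peaks per Mb (exact Poisson 95% interval 23.5 to 28.7). Set against the remaining 5 chromosomes the ratio of densities was 1.11, and the two-sided exact binomial test did not pass (Benjamini-Hochberg adjusted p = 0.0685 over 6 chromosomes). In the stronger part of the list, its 1190 lowest q-values, the ratio was 0.986, below 1. With chromosome I left out of the comparison the ratio was 1.28 and passed (exact adjusted p = 2.97e-05). The first peak of the chromosome, at 18850 to 19279, was 430 bp wide with a q-value of 0.00458. The last, at 15273076 to 15273144, was 69 bp wide with a q-value of 0.00202. Neither end peak was among the strong ones.

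Within the chromosome the peaks were spread unevenly, with few on the left and many on the right. The extent was divided into 10 equal bins, numbered from the left. Bins 1 to 10 held 28, 21, 34, 35, 38, 37, 37, 60, 43 and 64 peaks in that order. The emptiest was bin 2, from 1.53 to 3.05 Mb, with 13.7 peaks per Mb (exact Poisson 95% interval 8.51 to 21). The fullest was bin 10, with 41.9 peaks per Mb (32.3 to 53.5), 3.05 times as many peaks. The counts did not climb evenly. Bins 1 and 2 were sparse, bins 3 to 7 were nearly flat at 34 to 38 peaks, and bins 8 to 10 held 43 to 64. The share of bases under peaks was lowest in bin 2, at 0.505%, and highest in bins 8 and 10, at 1.95% and 1.93%. It did not follow the count throughout: bin 9 with 43 peaks had 1.24%, less than bin 6 with 37 peaks, at 1.56%.

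**Figure D1:**
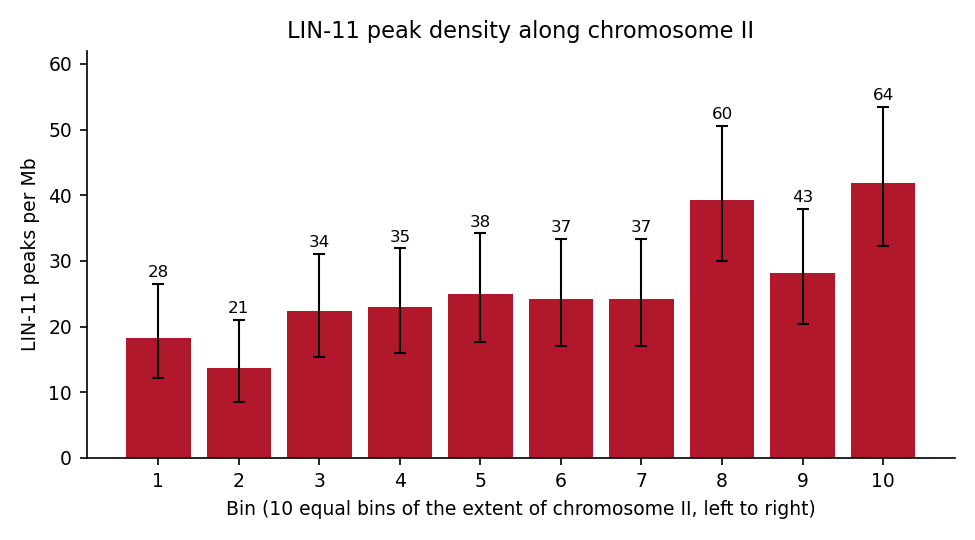
LIN-11 peaks per Mb in 10 equal bins of the extent of chromosome II, left to right; bars start at 0, error bars are exact Poisson 95% intervals and the number above each bar is its peak count. Bins 8 and 10, with 60 and 64 peaks, stand above the flat middle of 34 to 38, and bin 2, with 21, stands lowest.

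The rank correlation of bin number and peak count was 0.936 over the 10 bins of chromosome II. It ran from -0.503 on chromosome IV to 0.711 on chromosome III for the others. Bins of a chromosome share the same libraries, so these values are a description. Bins 6 to 10 held 241 of the 397 peaks of chromosome II, or 60.7% (exact Clopper-Pearson 95% interval 55.7 to 65.5%). On the other chromosomes bins 6 to 10 held 42.7 to 53.8%. Chromosome IV also varied strongly between bins, with 55 peaks in its fullest and 16 in its emptiest, but its fullest bins, 2 and 3, lay on the left.

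The contrast between the ends was larger than counting error over peaks. With the extent divided into 3 equal segments, the right segment held 185 peaks, the central segment 119 and the left segment 93. Right over left gave a ratio of 1.99 (95% interval 1.54 to 2.58, exact binomial adjusted p = 2.19e-07 over 6 chromosomes). On the other 5 chromosomes together the right segments held 655 peaks and the left segments 692, a ratio of 0.947. The tilt of chromosome II differed from theirs with an odds ratio of 2.1 (two-sided Fisher's exact test, p = 5.42e-08). Among single chromosomes, only IV also passed the exact test, in the opposite direction, with 87 peaks in its right segment and 150 in its left (ratio 0.58, adjusted p = 0.000154). That call was lost in the list of 1190 (ratio 0.765, exact adjusted p = 0.342). The tilt was chosen for testing with earlier results of these data known, so the p-values are not those of a fresh test. The tests also count each peak as independent, which close neighbours are not. With peaks less than 1000 bp apart merged into single regions, the ratio of chromosome II was 1.76 (exact adjusted p = 7.97e-05). Merging leaves unevenness over longer distances in place. In windows of 100 kb the peak counts of II had a variance 1.73 times their mean. The p-values may therefore be too small and the intervals too narrow.

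**Figure D2:**
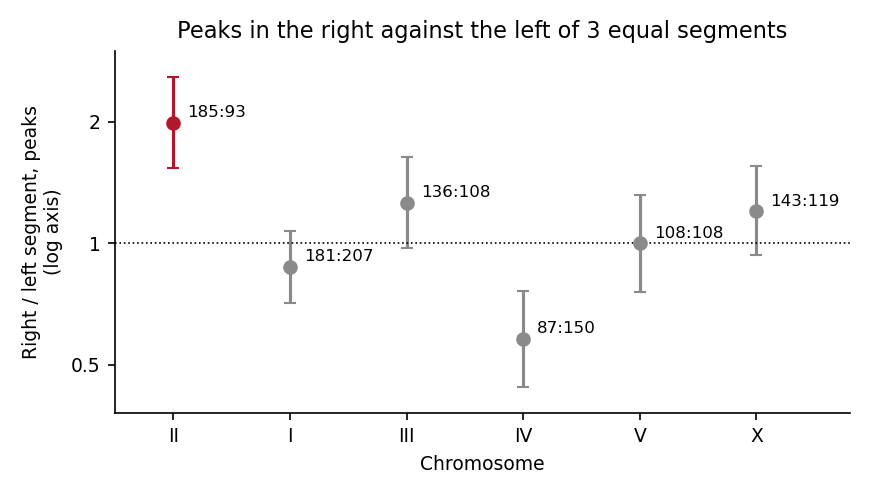
Ratio of peaks in the right segment to peaks in the left segment of each chromosome, on a log axis, with 95% intervals from the exact binomial interval; the labels give right and left counts and the dotted line marks equality. Chromosome II lies at 1.99, chromosome IV at 0.58, and the intervals of I, III, V and X include 1.

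Strong and weak peaks were tilted in the same direction. Among peaks with a q-value below 1e-10, 21 lay in the right segment, 12 in the central segment and 8 in the left. Below 1e-05 the counts were 54 in the right segment, 28 in the central and 21 in the left, and above 0.001 they were 81, 51 and 44 in the same order. The right-to-left ratios of these classes were 2.62, 2.57 and 1.84. In the weaker part, the 1191 highest q-values of the whole list, the ratio was 1.61 (exact adjusted p = 0.0155). By width the counts were less alike. Of the peaks at least 1000 bp wide, 20 lay in the right segment, 16 in the central segment and 4 in the left. Peaks under 250 bp numbered 43 in the right segment, 15 in the central segment and 26 in the left. The narrow class was thus lowest in the centre, while the broad class was lowest on the left.

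The longest stretch between neighbouring LIN-11 peaks of the list lay in the left segment of chromosome II. It ran from 1506102 to 2058966, 552865 bp, or 3.62% of the extent of the chromosome. That is 14.5 times the mean distance between neighbouring peaks of chromosome II, 38022 bp. On the other chromosomes the longest stretch measured 177796 bp on I, 272738 bp on III, 347039 bp on IV, 421611 bp on V and 279818 bp on X, which were 5.95 to 7.43 times the mean distance of each. The stretch of chromosome II was long both in bases and relative to its own spacing. No test of its length was made here.

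The peaks that bound this stretch were of very different strength. On its left stood a 172 bp peak at 1505930 to 1506101 with a q-value of 0.00938, number 389 of 397 on the chromosome by q-value. On its right stood a 381 bp peak at 2058967 to 2059347 with a q-value of 4.18e-06, number 99. Beyond the weak left bound there was again no peak for 185050 bp, up to a strong one at 1320440 to 1320879 (q = 7.46e-19). Around the stretch, 9 peaks lay within 500 kb to its left and 4 within 500 kb to its right. To its left the chromosome held 28 peaks in all, and the rest of the left segment held 65.

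Other long stretches lay further right. The next in length, 310996 bp from 4377273 to 4688268, was bounded by a 984 bp peak on its left (4376289 to 4377272, q = 8.62e-07) and a 168 bp peak on its right (4688269 to 4688436, q = 0.000337). A stretch of 231860 bp from 8329343 to 8561202 had a 666 bp peak on its left (8328677 to 8329342, q = 0.000114) and ended on its right at the peak with the rank 2 by q-value on the chromosome, at 8561203 to 8561593. Stretches of 231439 and 228784 bp lay between 50% and 63.6% of the extent. Stretches of at least 100 kb without a peak numbered 37 on chromosome II, and together they covered 39.4% of its extent. This share lay between that of III, 28.9%, and X, 42.7%. By segment, 7 of the stretches were centred in the right segment, 15 in the central segment and 15 in the left, with summed lengths of 927.1, 2248.1 and 2839.3 kb in that order. A further right-to-left density ratio left the longest stretch of every chromosome out of the length of its segment. On II it was 1.77 (exact binomial adjusted p = 2.65e-05), beside 1.99 with the full lengths. That setting was added after the results were seen.

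**Figure D3:**
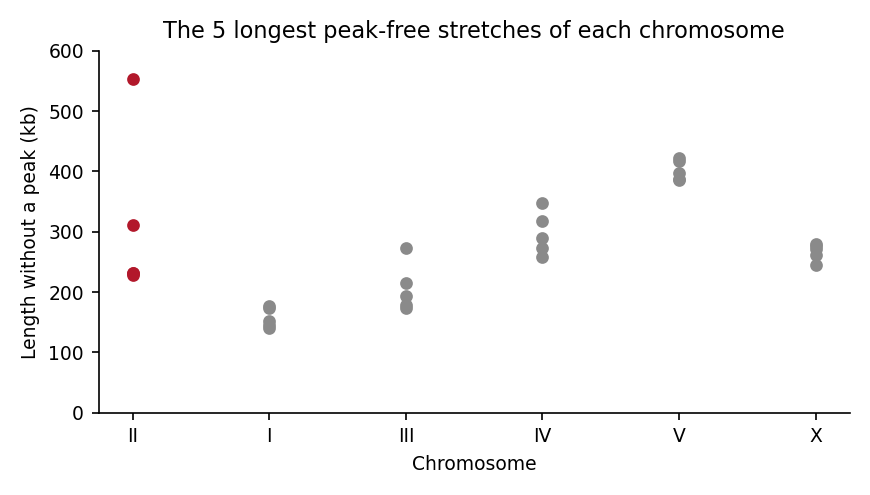
Lengths in kb of the 5 longest stretches without a peak on each chromosome; each point is a stretch. The longest stretch of chromosome II, 552865 bp, lies above every other point, and its next 4, 228784 to 310996 bp, lie within the range of the other chromosomes.

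Chromosome II was also cut into 153 windows of 100 kb. On average a window held 2.59 peaks, 26 windows (17%) held none and 9 held at least 7. Among the other chromosomes, I had 24 windows with at least 7 peaks, V had 4, III had 2, IV had 1 and X had 0. The variance of the window counts was 1.73 times their mean on chromosome II, against 1.77 on I, 1.05 on III, 1.34 on IV, 1.68 on V and 1.26 on X. Counts on II were thus about as uneven as on I and V. Empty and full windows followed the tilt. The right segment had 3 empty windows, the central segment 10 and the left 13, while windows with at least 7 peaks numbered 5 in the right segment, 2 in the central and 2 in the left.

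The fullest window, from 10.5 to 10.6 Mb, held 10 peaks, and 7 of them formed a close run. The run spanned 12472 bp from 10541904 to 10554375, with 218 to 719 bp between neighbours, and was the longest run on any chromosome of peaks no more than 2000 bp apart at their edges. The next longest, on chromosome I, had 5 peaks. In order along the chromosome its peaks were 299, 1419, 2063, 1280, 1190, 2538 and 1122 bp wide, so 6 of the 7 were at least 1000 bp wide. Their q-values ran from 8.97e-07 at 10547006 to 10548285 to 0.00194 at 10550114 to 10552651, which with 2538 bp was number 2 of the chromosome by width. In this run 3 of 7 q-values lay under 1e-05, and the median minus log10 q was 4.11, beside 3.19 over all peaks of the chromosome. None was among the 10 lowest q-values of chromosome II. The other peaks of the window stood apart from it. A 594 bp peak at 10502525 to 10503118 had the lowest q-value of the window, 8.14e-13, and was followed by 38785 bp without a peak. A 482 bp peak at 10563198 to 10563679 (q = 8.29e-10) and a 99 bp peak at 10566543 to 10566641 (q = 0.00318) closed the window.

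The next fullest window, from 11.7 to 11.8 Mb, held 9 peaks of another kind. Only 1 of them reached 1000 bp, a 1966 bp peak at 11748522 to 11750487 (q = 1.97e-17). Its left neighbour, 1158 bp away at 11746580 to 11747363, was 784 bp wide and number 10 of the chromosome by q-value (8.05e-19). To the right followed peaks at 11752765 to 11753382 (q = 0.00472), 11756225 to 11757047 (q = 3.49e-11), 11759199 to 11759615 (q = 1.45e-08) and 11761677 to 11761929 (q = 0.00418), each 2061 to 2842 bp from the one before it. Strong and weak peaks stood side by side here. The outer 3 peaks were all weak, with q-values of 0.00523 (11722216 to 11722427), 0.00137 (11732998 to 11733336) and 0.00249 (11777972 to 11778315). Both windows lay in the right segment. The other windows with at least 7 peaks began at 5.3, 6.3, 11.3 and 14 Mb, with 8 peaks each, and at 3, 3.5 and 14.4 Mb, with 7 each.

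**Figure D4:**
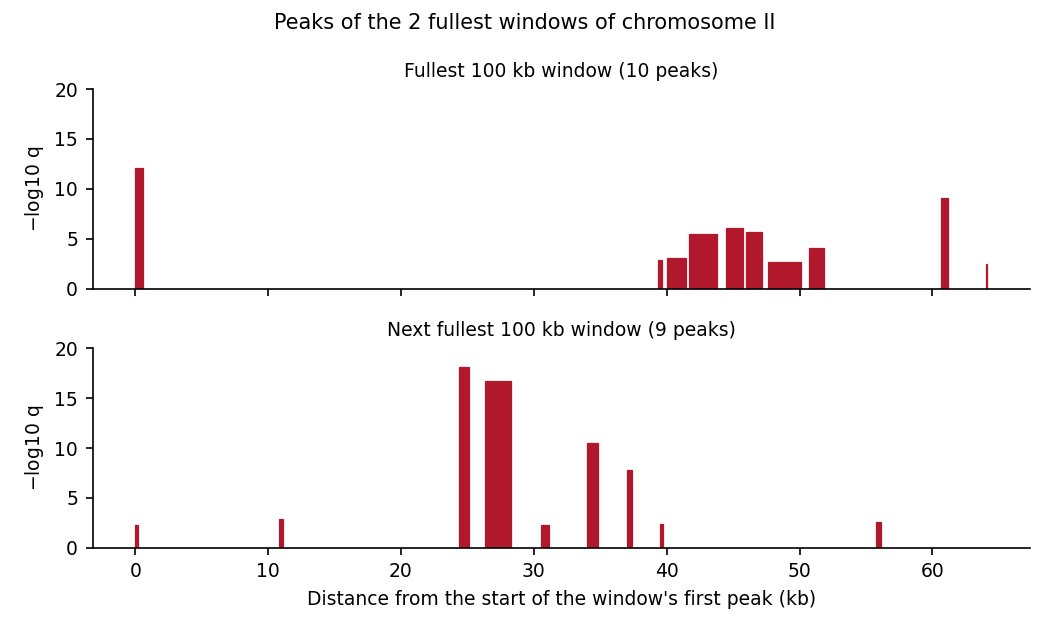
Peaks of the 2 fullest 100 kb windows of chromosome II, by distance in kb from the start of the window's first peak; each bar spans a peak from start to end and its height is minus log10 of the authors' q-value. The upper window shows the run of 7 close peaks, 6 of them broad and none above 6.05, and the lower window shows narrower peaks, the highest at 18.1.

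By its median spacing chromosome II stood between I and III. The median distance from a peak's end to the next start was 21877.5 bp (exact order-statistic 95% interval 16181 to 25689), against 24607 bp (22715 to 26588) on the other 5 chromosomes together. Single chromosomes ran from 14247.5 bp on I to 33132 bp on V. The intervals of II and of the others together overlap, and no test was made. Distances from 2000 to 5000 bp made up 13.6% of the distances on chromosome II, as on I, and 6.09 to 9.07% on III, IV, V and X. Distances under 1000 bp made up 7.83% on II and 7.07% on the others together. The closest pair of the chromosome stood 202 bp apart, the same as the smallest distance in the whole list. On the other chromosomes the smallest distance was 205 bp on I, 230 bp on III, 295 bp on IV, 202 bp on V and 220 bp on X. Distances in the run of 7 described above began at 218 bp, close to these values. Whether the caller joins regions that lie closer is not given in the sources used here. The closest pair of chromosome II joined a 1035 bp peak at 14398802 to 14399836 (q = 1.11e-07) to a 772 bp peak at 14400039 to 14400810 (q = 0.00665).

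Close neighbours lay mostly on the right. Another peak midpoint within 2000 bp was found for 58 of the 397 peaks, 14.6% (exact Clopper-Pearson 95% interval 11.3 to 18.5%), against 15.6% (14.1 to 17.3%) of the peaks on the other chromosomes. By segment this was 37 of 185 peaks in the right segment, 17 of 119 in the central and 4 of 93 in the left, or 20%, 14.3% and 4.3%. Their intervals were 14.5 to 26.5%, 8.55 to 21.9% and 1.18 to 10.6%. Peaks with none within 2000 bp were also tilted, with 148 in the right segment and 89 in the left, a ratio of 1.66. With the distance taken between edges, 84 peaks of chromosome II fell into 35 runs, and 10 runs had at least 3 peaks. Of those 10, 6 lay in the right segment, which held 185 of all 397 peaks. Among them was a run of 3 at 14404781 to 14408155 that held 2 broad peaks and a q-value of 9.24e-10. Of the 58 close peaks, 12 were at least 1000 bp wide and 46 were narrower, beside 40 broad among all 397 peaks. On the other chromosomes 39 of 310 close peaks were that broad, beside 202 of all 1984. No test of this was made.

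Peaks of chromosome II had about the same widths as those elsewhere. The median was 386 bp (exact order-statistic 95% interval 349 to 411), against 404.5 bp (387 to 416) on the other 5 chromosomes. The quartiles on chromosome II were 267 and 603 bp, and the narrowest peak was 3 bp. Peaks of at least 1000 bp numbered 40, or 10.1% (exact Clopper-Pearson 95% interval 7.3 to 13.5%), against 10.2% (8.89 to 11.6%) on the others. Peaks under 50 bp numbered 12, or 3.02%, against 4.18%. At the upper end chromosome II stopped earlier, its widest peak being 2705 bp, while the widest peak of each other chromosome measured 3881 to 5646 bp. The medians by segment were 349 bp in the right segment, 408 bp in the central and 382 bp in the left, with overlapping intervals. In the broad class the shares were 10.8% in the right segment (6.73 to 16.2%), 13.4% in the central (7.88 to 20.9%) and 4.3% in the left (1.18 to 10.6%).

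**Figure D5:**
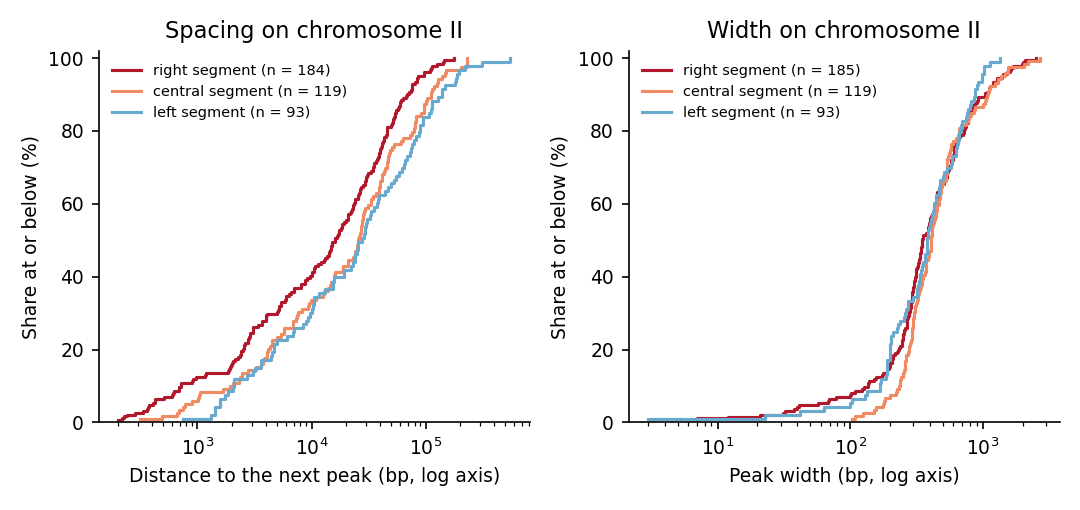
Cumulative shares of distances to the next peak (left panel) and of peak widths (right panel) on chromosome II, by segment of the extent, on log axes in bp. The curve of distances in the right segment, median 16111.5 bp, lies left of those of the central and left segments, medians 25721 and 27480 bp, while the width curves cross and lie close together, with upper quartiles of 567 to 631 bp.

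The 5 widest peaks all lay between 5660600 and 10552651 and differed widely in score. The widest, 2705 bp at 9059866 to 9062570, stood at number 22 of the chromosome by q-value (3.98e-13). Peaks of 2538 and 2063 bp belonged to the run of 7 described above. A 2197 bp peak at 5660600 to 5662796 was also number 3 by q-value, with 7.84e-25. The narrowest of these 5, 2030 bp at 8931359 to 8933388, stood at number 249 with a q-value of 0.00166. Width and strength were thus only loosely tied at the top. Over all 397 peaks the rank correlation of width with minus log10 of the q-value was 0.423, against 0.427 to 0.544 on the other chromosomes. The caller computes its q-value from tags within the region, so both measures share them.

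By the authors' q-values, chromosome II had a lower share of strong peaks than the rest of the list, with overlapping intervals. The median of minus log10 q was 3.19 (exact order-statistic 95% interval 3.02 to 3.5), against 3.54 (3.39 to 3.68). A q-value below 1e-05 was given to 103 peaks, 25.9% (exact Clopper-Pearson 95% interval 21.7 to 30.6%), against 32% (30 to 34.1%) on the other chromosomes. On single chromosomes that share was 26.3% on V and on X, and 34.5 to 36.8% on I, III and IV, so II stood with V and X. Below 1e-10 it was 41 peaks, 10.3% (7.51 to 13.7%), against 11.4% (10 to 12.9%). No test of these shares was made. Within the chromosome the medians were 3.5 in the right segment, 3.19 in the central and 3.06 in the left, with overlapping intervals.

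Of the 10 lowest q-values, 3 belonged to the right segment, 4 to the central and 3 to the left, beside 185, 119 and 93 of all peaks. The lowest q-value of the chromosome, 1.4e-32, was that of a 572 bp peak at 5844544 to 5845115, number 14 of the whole list. The peaks at 5660600 to 5662796 and at 5543323 to 5543810 (488 bp, q = 4.23e-21) stood in the same bin 4, so that 3 of the 10 fell in a bin of 35 peaks. Number 2 of the chromosome, at 8561203 to 8561593, was 391 bp wide with a q-value of 2.83e-25. Number 4, at 14561578 to 14561911, was the narrowest of the 10 at 334 bp (q = 5.25e-23).

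The 3 of the left segment stood at 255104 to 255734 (631 bp, q = 2.75e-22), at 410793 to 411382 (590 bp, q = 2.44e-20) and at 1320440 to 1320879 (440 bp, q = 7.46e-19), all in bin 1 with its 28 peaks. Peaks below 1e-10 numbered 4, 0, 1, 7, 3, 4, 2, 10, 2 and 8 in bins 1 to 10. Those bins held 28, 21, 34, 35, 38, 37, 37, 60, 43 and 64 peaks in all. Over the whole chromosome 41 of 397 peaks, 10.3%, lay below 1e-10, and no test of the bins was made. The remaining 2 of the 10 were the peak at 11746580 to 11747363 in the window from 11.7 to 11.8 Mb and a 750 bp peak at 12944524 to 12945273 (q = 3.2e-20). The median width of the 10 was 581 bp, and 1 reached 1000 bp.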

How the data were processed

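Per the file headers, positions are on WormBase WS180 and the caller was PeakSeq. The authors deposited 1 list for both replicates, with a q-value per peak; the caller's version, the aligner and the filters are not given in the sources used here. The q-values are the authors' own and served to describe, rank and filter peaks within this list. Extents run from base 1 to the end of the last peak. Peak density and right against left segments were tested with two-sided exact binomial tests, adjusted over 6 chromosomes, and chromosome II against the others with Fisher's exact test, in scipy 1.17.1 under Python 3.11.15, at a threshold of 0.05. Intervals are exact (95%). The tests were tested on simulated data. The members, segments and tests were chosen with earlier results of these data known. Without an annotation of the build, peaks were named by position: the 10 lowest q-values, the 5 widest, those beside the 3 longest stretches, those of the 2 fullest windows, the closest pair, the first and the last, 39 peaks in all. Other values described were picked after they were seen.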

Additional observations from a re-analysis of the deposited data

Results flagged for a closer look

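The right-to-left tilt of chromosome II stood out because it differed from that of the other 5 chromosomes, with an odds ratio of 2.1 (two-sided Fisher's exact test, p = 5.42e-08). The right segment held 185 peaks on II and 655 on the others, and the left segment held 93 on II and 692 on the others. Chromosome IV tilted the other way. Without it the odds ratio was 1.9 (Fisher's exact p = 4.34e-06). The tilt was chosen with earlier results of these data known, so these p-values come from the same peaks that pointed to it. The list combines all libraries, so whether both replicates show the tilt was not tested.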

How the results depend on the processing

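In all, 62 alternative values were computed for 12 results. In 44 the result held. For tested values this meant the direction and the call, and for untested medians and shares the interval. The longest stretch had to be equal. The fullest window was allowed a set margin, under which 8 peaks counted as held beside 10. The right-to-left ratio of chromosome II passed the exact binomial test under all 10 alternatives run, from 1.54 (2 segments in place of 3) to 2.58 (the 1190 lowest q-values of the list), with adjusted p up to 0.0155. Its difference from the other chromosomes passed under all 7, with odds ratios of 1.55 to 2.53. Taking out each chromosome's longest stretch, taking out bin 10, and the 1191 peaks with the highest q-values were added after the results were seen. The density ratio of II turned to 0.986 among the 1190 peaks. It passed the exact test without chromosome I (1.28, adjusted p = 2.97e-05), without each longest stretch (1.13, exact adjusted p = 0.0295) and without peaks under 50 bp (1.12, exact adjusted p = 0.045). Among the 1190 peaks, which leave 180 on II, bins 6 to 10 held 66.1%, the fullest window 6 peaks, the median distance was 44007 bp, the median width 469.5 bp, the median minus log10 q 5.69, the broad share 14.4% and the share with a neighbour within 2000 bp 4.44%. The longest stretch there was 824323 bp, from 411383 to 1235705, where the full list has 10 peaks with q-values of 0.000679 or more. The neighbour share was 2.73% with merged peaks, 11.2% without the widest 10% of the list, 21.2% between edges and 40.3% at 5000 bp. The broad share without the widest 10% was 0 by construction. Also by construction, choosing the lowest q-values raised the median minus log10 q, and merging peaks took away close neighbours. Apart from fewer peaks and the constructions named, the cause was not tested. Merging gave no value for the score. No paired analysis was possible because both replicates share 1 list, and no replicate could be left out. With depth unknown, a peak-free stretch says only that no peak was detectable there.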

Other observations

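The q-values carry more than a rank. Each was multiplied by the peak's line number and divided by a trial number of regions, and the result was looked up among the tails of equal-chance binomial distributions over pairs of whole numbers (up to 2500 tags in all, relative tolerance 1e-11). With 20869 regions all 2381 peaks matched at least 1 pair of whole numbers, and with 20868 or 20870 regions 0 did. Read as ChIP tags and input tags, the pairs are an inference and not values of the list. On chromosome II the input numbers skipped values: 40, 41, 43, 44, 46, 47 and 49 occurred, but none of the numbers between them. ChIP numbers from 43 to 50 all occurred. Counts multiplied by a factor above 1 and rounded would skip numbers in that way, but this was not tested. Whether the input number was scaled to the ChIP depth is not stated in the sources used here. If it was not, every ratio below also carries the difference in library depth. Each of the 397 peaks of chromosome II had a single pair.

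On that reading the median peak of chromosome II had 95 ChIP tags (quartiles 50 and 145) against 43 input tags (18 and 69). Input tags here and below mean the inferred input number, which need not be a count of sequenced tags. ChIP over input had a median of 2.33, beside 2.29 on the other 5 chromosomes, and 122 peaks (30.7%) lay under 2, beside 32.4%. The median ratio by segment was 2.38 in the right, 2.15 in the central and 2.59 in the left. Summed over their 185, 119 and 93 peaks, the right segment of the chromosome had 22016 ChIP tags against 10678 input tags, the central segment 15483 against 7707, and the left segment 8352 against 3674. The summed ratios were 2.06 in the right segment, 2.01 in the central and 2.27 in the left. These sums weight each peak by its tags.

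The broad run at 10541904 to 10554375 had ratios below the chromosome's median throughout. Its 7 peaks had 82, 209, 302, 241, 375, 458 and 147 ChIP tags against 40, 137, 187, 135, 243, 354 and 79 input tags. The ratios ran from 1.29, the lowest on the chromosome, to 2.05. Such ratios were not particular to the run. All 5 widest peaks of the chromosome lay below the median of 2.33, with 1.62, 1.29, 2.13, 1.61 and 1.38 in order of width. The widest peak, at 9059866 to 9062570, had 674 ChIP tags against 417 input tags, a ratio of 1.62. The strongest peak by q-value, at 5844544 to 5845115, had 300 ChIP tags against 69 input tags, a ratio of 4.35. The strong peaks of the left end, at 255104, 410793 and 1320440, had ratios of 3.58, 4.2 and 3.79.

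Among the 347 peaks of chromosome II at least 50 bp wide with at least 10 input tags, the highest ratio belonged to a 537 bp peak at 9955833 to 9956369, with 89 ChIP tags against 17 input tags (5.24) and a q-value of 2.65e-11. Next came 14635941 to 14636209, with 54 against 12 (4.5), and the strongest peak by q-value. At 13708931 to 13709256 there were 43 against 10 (4.3), and at 10652063 to 10652366 there were 55 against 13 (4.23). Of these 5, 1 was among the 10 lowest q-values. Apart from the strongest peak by q-value, with 69 input tags, these ratios rest on 10 to 17 input tags, and their counting error is wide.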
